A study of Mus musculus with 12 samples.

Results

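The genes described here encode the mitochondrial ribosomal proteins of the mouse. They were chosen as the protein-coding genes whose GENCODE M21 symbol starts with Mrpl or Mrps followed by a digit, which gave 78 of the 54532 genes in the count table, and 77 of the 16675 genes that passed the low-count filter. By their symbols 49 are Mrpl and 29 are Mrps genes, spread over 17 chromosomes. The gene that did not pass was Mrpl53, which had 0 counts in every library.

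The mitochondrial ribosome translates the few messenger RNAs of the mitochondrial genome, whose products are core subunits of the respiratory chain and the ATP synthase. Its ribosomal RNAs are transcribed in the mitochondrion, while its proteins are encoded in the nucleus, made in the cytosol and imported. Haematopoietic stem cells are known for a low rate of protein synthesis and a reliance on glycolysis, and their progeny for a greater use of respiration.

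Libraries of messenger RNA were made from mouse bone marrow haematopoietic stem and progenitor cells (HSPCs) in 4 groups of 3 libraries. The groups were aged HSPCs cultured with uridine, a pyrimidine nucleoside, aged HSPCs cultured with vehicle, uncultured aged HSPCs, and uncultured young HSPCs. All were labelled wild type, but the strain label runs from c57bl/6 to c57bl/15 over the samples, so the strain is uncertain. No source used here gives the ages of the mice, how the cells were sorted, or the time and dose of the culture with uridine. The labels also do not say whether each library had its own animal or culture, so the spread that p-values are based on may be technical.

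The libraries held 16785065 to 19025802 counts. Immunoglobulin genes and Jchain took 21.6 to 21.9% of the counts of the uncultured aged libraries, against 0.539 to 0.544% in uncultured young libraries, 0.600 to 0.615% in uridine cultures and 0.922 to 0.924% in vehicle cultures. The 7 plasma cell markers (Jchain, Mzb1, Sdc1, Xbp1, Prdm1, Tnfrsf17 and Derl3) were all higher in aged cells and summed to 25199 to 25487 CPM there, against 555 to 563 CPM in young cells. The 8 proliferation markers were all lower in aged cells (1811 to 1841 CPM, against 3973 to 4007 CPM in young cells), and so were the 7 markers of maturing neutrophils (515 to 549 CPM, against 5059 to 5281 CPM). In uridine cultures 6 of these neutrophil markers were higher and 1 lower than in vehicle cultures (1910 to 1979 CPM, against 287 to 295 CPM), and all 9 erythroid markers were higher (125 to 130 CPM, against 6.81 to 9.94 CPM, with Slc4a1 at 0 in the vehicle libraries). The 4 marrow stroma markers that passed the filter (Col3a1 and Pdgfra did not) were also higher with uridine (143 to 153 CPM, against 1.75 to 2.53 CPM), as were all 6 B cell markers (190 to 209 CPM, against 40.0 to 43.2 CPM). With uridine 4 of the 6 macrophage markers were lower and 1 higher, and 5 of the 8 proliferation markers higher and 0 lower. With age 5 of the 6 B cell markers were higher and 1 lower, and 3 of those 4 stroma markers lower and 1 higher. Erythroid markers were lower with age in 8 of 9 cases and higher in 0. Of 6 T and natural killer cell markers 4 were higher with age and 5 with uridine, and 0 were lower in either. A set of 145 genes had 10 or more times their vehicle level in young cells, and 5 CPM or more there. They stood in the uridine libraries at medians of 0.337, 0.329 and 0.342 of the way from the vehicle to the young level. The spread over these genes was narrow, with quartiles of 0.298 and 0.366, 0.289 and 0.366, and 0.293 and 0.370 in uridine libraries 1, 2 and 3. HSPC markers such as Kit, Cd34, Flt3 and Gata2 were detected in every group, and they differed with age in both directions. Ly6a averaged 247 ± 4.80 CPM in uncultured aged and 17.8 ± 0.986 CPM in uncultured young cells, and Slamf1, Procr and Mecom were also higher in aged cells, while Flt3 (-0.83 in log2 fold change), Gata2 (-0.73), Cd34 (-0.49) and Kit (-0.33) were lower. The part that these differences in composition have in the results on the ribosomal protein genes was not tested, except where a value is given. In bulk RNA, fewer cells of a type and less RNA per cell cannot be told apart.

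The summed level of the members was higher in aged than in young cells and lower with uridine than with vehicle after TMM scaling, but as a raw share of counts it was lower in aged than in young cells. Their levels in CPM (counts per 1e+06 counts, scaled with TMM factors) summed to 2748 ± 5.01 in uridine cultures, 3007 ± 18.9 in vehicle cultures, 3052 ± 59.3 in uncultured aged cells and 2762 ± 18.7 in uncultured young cells (SD, n = 3 each). The sum was thus 10.5% higher in aged than in young libraries and 8.62% lower in uridine than in vehicle libraries, with no overlap of libraries in either comparison. Vehicle cultures were 1.48% below uncultured aged cells, and these libraries overlapped. As a share of all counts, before TMM scaling, the members held 0.293 to 0.294% in uridine cultures, 0.315 to 0.318% in vehicle cultures, 0.250 to 0.259% in uncultured aged cells and 0.291 to 0.294% in uncultured young cells. On that raw scale, whose total includes the immunoglobulin counts, the aged libraries were below the young ones.

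**Figure D1:**
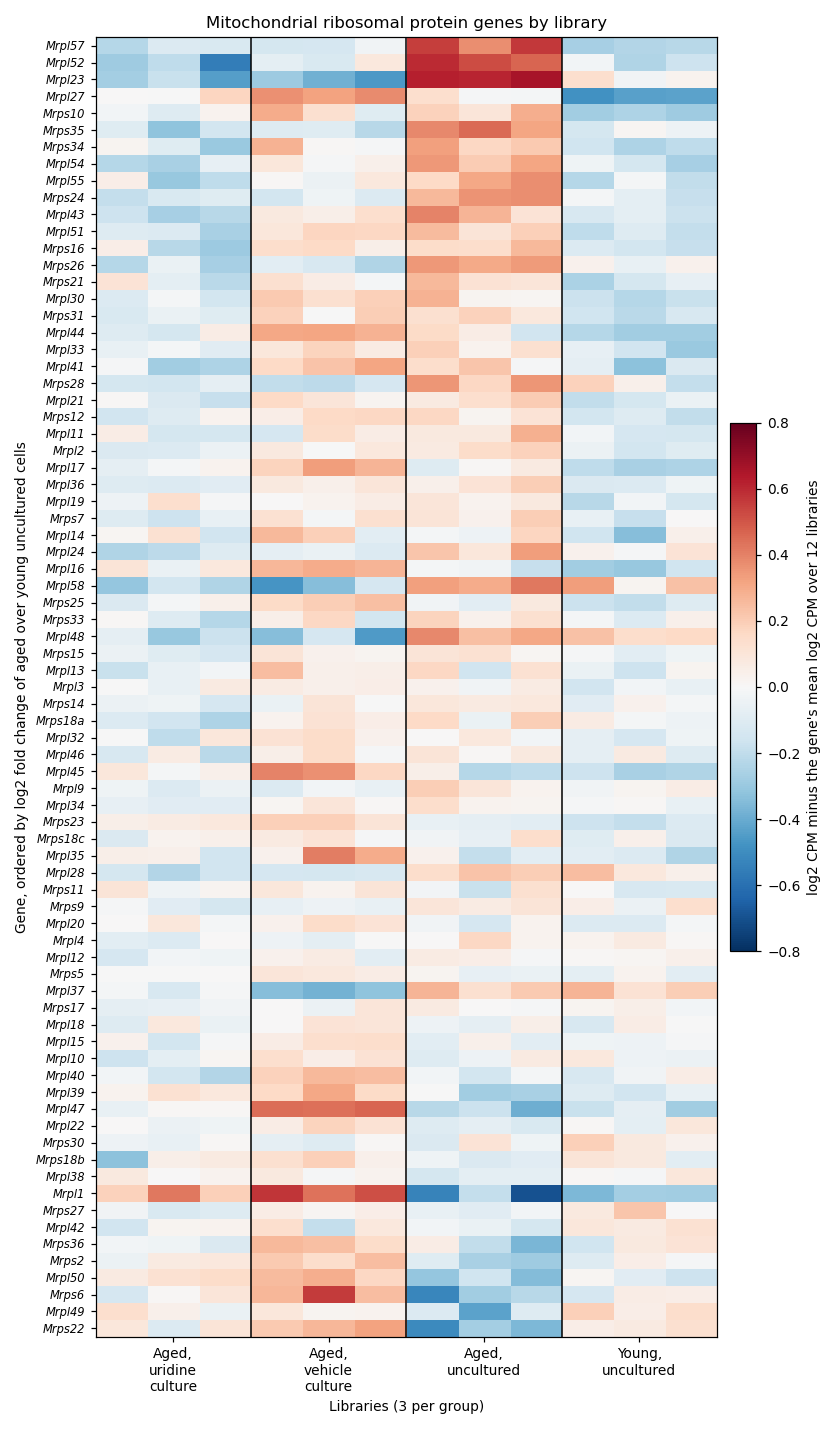
Each row is one of the 77 members that were tested and each column a library, and colour gives the log2 CPM less the gene's own mean over the 12 libraries. Rows run from the member most raised in aged over young cells (Mrpl57) to the most lowered (Mrps22), and the upper rows are darkest in the 3 uncultured aged libraries.

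The members differed in level by over an order of magnitude, and their order was close to the same in each group. Per length, as FPKM computed with each gene's principal transcript, Mrpl33 was the most abundant, at 99.8 FPKM in uridine cultures, 112 in vehicle cultures, 113 in uncultured aged and 92.2 in uncultured young cells. It was followed by Mrpl42, Mrpl34 and Mrpl52, and Mrps25, at 4.15, 4.85, 4.20 and 3.80 FPKM in the same groups, was the lowest. The median member stood at 25.2, 27.7, 24.7 and 25.1 FPKM. Spearman's coefficient of the FPKM order between groups was 0.96 to 0.99 (n = 77 genes, a description with no test). The order depends on the length used: against FPKM from the union of all annotated exons the coefficient was 0.69, and Mrpl33 came 62nd by that length. Libraries of a group lay close together, with a median coefficient of variation per member of 5.17% in uridine cultures, 4.09% in vehicle cultures, 5.51% in uncultured aged and 4.75% in uncultured young cells.

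The first comparison, aged against young HSPCs taken without culture, bears on age. Of the 77 members 31 were higher and 5 lower in aged cells, and 41 did not pass the threshold of 0.05 on the p-value of edgeR's quasi-likelihood test, Benjamini-Hochberg adjusted over all 16675 genes. The members higher in aged cells were 40.3% of those tested, where 33.2% of all genes were called higher, and the members lower were 6.49%, where 32.1% of all genes were called lower (65.3% in either direction). The median log2 fold change was 0.10 for the members and 0.017 for all genes, and 59 members were above 0. With the higher group also at least 25% above the lower one, 14 of the 77 members were higher and 2 lower (26.5% and 24.2% of all genes). By this rule the share of members higher was below that of all genes. The aged and young libraries did not overlap for 35 members that were higher and 6 that were lower in aged cells (33.8% and 33.1% of all genes). Scaling by library totals alone lowered the median of all genes by 0.34. With it 3 members were higher and 48 lower, and their median went from 0.10 to -0.24. Calls over all genes were not counted under this scaling. With immunoglobulin genes left out before scaling, 33 members were higher and 4 lower.

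The largest rises with age were in the large subunit. Mrpl57 (chromosome 14, 57826234 to 57829296, plus strand, GRCm38), a short protein found only in mitochondrial ribosomes, stood at 70.2, 62.1 and 70.9 CPM in the aged libraries and 39.9, 40.8 and 41.1 CPM in the young ones. The aged libraries were all far above the young ones (log2 fold change 0.74, SE 0.062, adjusted p = 5.93e-13 by edgeR). Mrpl52 (chromosome 14, 54426909 to 54429756, plus strand), another large subunit protein with no bacterial counterpart, had 39.9, 37.9 and 36.4 CPM in aged and 25.9, 22.3 and 23.5 CPM in young libraries, again with a wide gap (log2 fold change 0.67, SE 0.086, adjusted p = 2.01e-08 by edgeR). Mrpl23 (chromosome 7, 142532686 to 142540747, plus strand), whose bacterial homologue lines the exit of the peptide tunnel, was at 54.1, 53.7 and 55.5 CPM in aged and 38.5, 34.5 and 35.8 CPM in young libraries, which did not overlap (log2 fold change 0.58, SE 0.070, adjusted p = 4.42e-09 by edgeR). These 3 were the only members still called higher when counts were scaled by library totals. Mrpl27, which in bacteria reaches towards the peptidyl transferase centre, was at 27.2, 24.5 and 24.5 CPM in aged and 17.6, 18.3 and 18.4 CPM in young libraries (log2 fold change 0.49, SE 0.084, adjusted p = 4.45e-06 by edgeR).

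In the small subunit Mrps10, a homologue of a bacterial head protein, had 40.7, 38.3 and 43.8 CPM in aged and 29.5, 30.2 and 29.4 CPM in young libraries (log2 fold change 0.46, SE 0.080, adjusted p = 4.56e-06 by edgeR). Mrps35, which is specific to mitochondria, had 43.2, 45.2 and 41.3 CPM in aged and 29.98, 33.5 and 32.2 CPM in young libraries (log2 fold change 0.44, SE 0.073, adjusted p = 2.48e-06 by edgeR). Neither gene's libraries overlapped. Scaled by library totals alone, Mrpl27, Mrps10 and Mrps35 kept a positive fold change (0.15, 0.12 and 0.10) but were no longer called. Other members called higher by smaller amounts included Mrps12, the decoding centre protein (0.25), and Mrpl11 of the stalk base (0.25). Mrps34 was also called (0.44), but it shares 63.4% of its exon bases with Mapk8ip3 on the opposite strand, and the use of strand in counting is not known.

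Mrps22 fell most with age. This small subunit protein, specific to mitochondria (chromosome 9, 98588730 to 98601660, minus strand), had 15.3, 18.1 and 17.02 CPM in the aged and 22.6, 23.00 and 23.9 CPM in the young libraries, and every aged library was below every young one (log2 fold change -0.46, SE 0.091, adjusted p = 3.34e-05 by edgeR). Mrpl49 of the large subunit followed, at 29.6, 23.7 and 29.7 CPM in aged and 36.4, 33.1 and 35.2 CPM in young libraries, which did not overlap (log2 fold change -0.34, SE 0.081, adjusted p = 4.49e-04 by edgeR). The other members lower in aged cells were called by small margins, and the aged and young libraries of Mrpl50 and Mrps2 overlapped. Mrpl50 (log2 fold change -0.20, SE 0.077, adjusted p = 0.0267 by edgeR) lost its call without aged library 1, aged library 3 or young library 1, and Mrps2, a homologue of a bacterial small subunit protein (log2 fold change -0.19, SE 0.069, adjusted p = 0.0169 by edgeR), without aged library 2, aged library 3 or young library 2. Mrpl42 (log2 fold change -0.17, SE 0.070, adjusted p = 0.0385 by edgeR) lost it without aged library 2, aged library 3, young library 1 or young library 3, and with immunoglobulin genes left out before scaling (adjusted p = 0.0516). Over the 6 fits that each left out a library, the edgeR adjusted p ran from 0.0102 to 0.143 for Mrpl50, from 0.00412 to 0.0869 for Mrps2 and from 0.0353 to 0.149 for Mrpl42. Without aged library 3 the number of members lower in aged cells was 2 in place of 5.

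**Figure D2:**
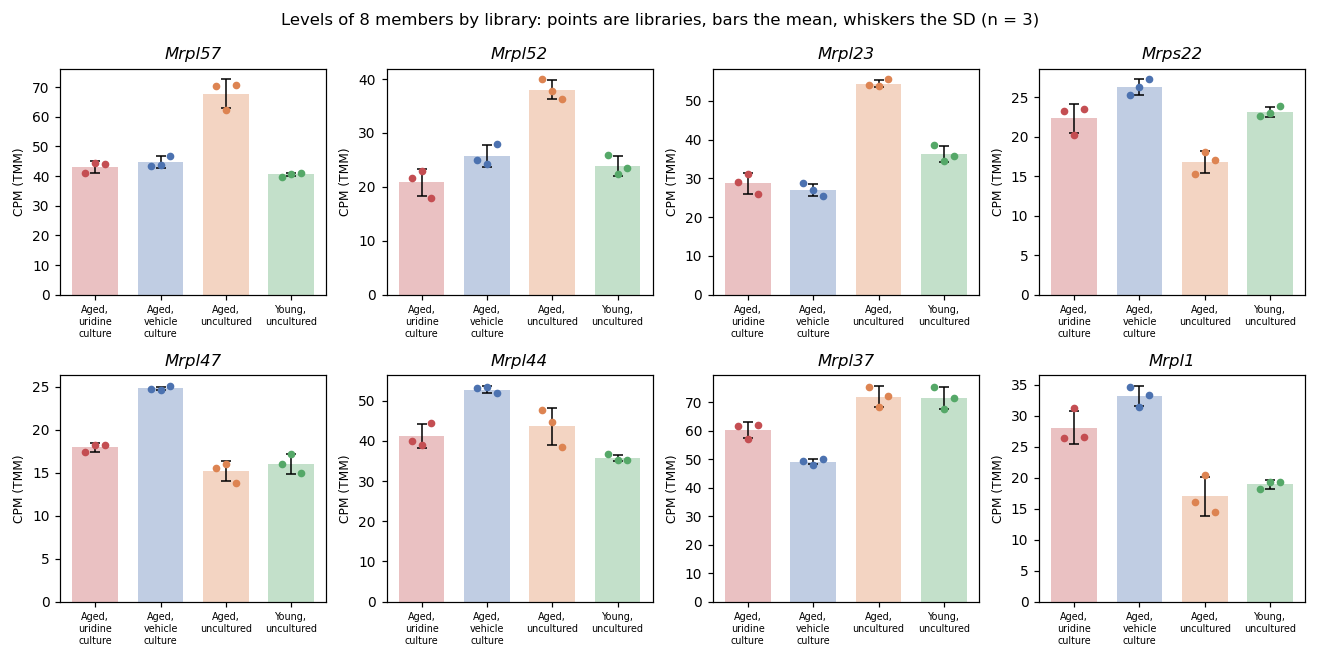
Bars give the mean CPM of 8 members in each group, points the 3 libraries and whiskers the SD. Mrpl57, Mrpl52 and Mrpl23 are highest in uncultured aged cells, Mrps22 is lowest there, Mrpl47, Mrpl44 and Mrpl1 are highest in vehicle cultures, and Mrpl37 is lowest in vehicle cultures.

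The comparison of uridine with vehicle cultures asked what uridine changes in aged HSPCs. Most members had lower means with uridine, by small amounts. Of the 77, 33 fell with uridine, 1 rose and 43 did not pass the threshold of edgeR's quasi-likelihood test. The members that fell were 42.9% of those tested, where 18.1% of all genes were called lower, and the member that rose was 1.30%, where 20% of all genes were called higher (38.1% in either direction). The median log2 fold change was -0.14, against -0.0011 for all genes, and 69 of the 77 members were below 0. In 5 of the falls the vehicle level was at least 25% above the uridine level (8.58% of all genes were called lower by that rule and 11.9% higher). By that rule the share of the 77 members called lower was below that of all genes. The uridine libraries were all below the vehicle libraries for 39 members and all above them for 1 (24.8% and 25.2% of all genes). The number of members called lower was 20 to 25 over all 6 fits without a library, against 33 with all libraries. It was 20 without uridine library 2 and 20 without vehicle library 1. The median was -0.16 to -0.13 over the 6 fits. Scaling by library totals alone also left 21 called lower, and calls over all genes were not counted under it.

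Mrpl47 fell most with uridine. It is the homologue of a bacterial protein beside the tunnel exit, and 10.2% and 13.9% of its exon bases are shared with Actl6a and Ndufb5 on the opposite strand. It stood at 17.4, 18.3 and 18.2 CPM in uridine and 24.7, 24.7 and 25.1 CPM in vehicle libraries, which were far apart (log2 fold change -0.47, SE 0.088, adjusted p = 5.21e-05 by edgeR). Mrpl41, specific to mitochondria, was at 21.9, 18.2 and 18.6 CPM in uridine and 24.6, 25.8 and 27.4 CPM in vehicle libraries, with no overlap (log2 fold change -0.41, SE 0.092, adjusted p = 5.18e-04 by edgeR). Mrpl40 was at 25.9, 23.7 and 22.3 CPM with uridine and 29.9, 31.4 and 31.2 CPM with vehicle, again with no overlap (log2 fold change -0.36, SE 0.079, adjusted p = 3.23e-04 by edgeR). Mrpl44, which has the fold of a double-strand RNA nuclease, was at 39.9, 38.9 and 44.6 CPM with uridine and 53.2, 53.3 and 51.8 CPM with vehicle (log2 fold change -0.36, SE 0.067, adjusted p = 4.39e-05 by edgeR). Its lowest vehicle library was above its highest uridine library.

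Mrps6, a homologue of a bacterial platform protein, shares 19.9% and 10.4% of its exon bases with Gm49711 and Slc5a3 on the same strand. It was at 5.86, 6.45 and 6.86 CPM with uridine and 7.73, 9.45 and 7.62 CPM with vehicle (log2 fold change -0.37, SE 0.15, adjusted p = 0.0426 by edgeR). Its call was lost without uridine library 1, uridine library 2, vehicle library 1 or vehicle library 2, and the edgeR adjusted p ran from 0.0434 to 0.234 over the 6 fits without a library. It was also lost with scaling by library totals (0.0568), with no low-count filter (0.0845), with protein-coding genes only (0.0502) and with young-like counts subtracted (0.113). Mrpl52 was at 21.7, 22.9 and 17.95 CPM with uridine and 24.98, 24.2 and 27.96 CPM with vehicle (log2 fold change -0.30, SE 0.089, adjusted p = 0.00604 by edgeR), and it lost the call without uridine library 3 or vehicle library 3 (0.00298 to 0.0786 over the 6 fits).

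Mrpl37 was the one member that rose with uridine. It had 61.7, 57.2 and 62.01 CPM in uridine and 49.3, 48.1 and 49.98 CPM in vehicle libraries, all uridine libraries being higher (log2 fold change 0.30, SE 0.055, adjusted p = 3.99e-05 by edgeR). Its levels in the uncultured cells were higher still, at 75.5, 68.3 and 72.3 CPM in aged and 75.3, 67.7 and 71.7 CPM in young libraries, which overlapped (log2 fold change 0.0089, SE 0.054, adjusted p = 0.894 by edgeR). The uridine libraries thus lay between the vehicle and the uncultured libraries for this gene. When the young-like counts were subtracted from the uridine libraries, in proportion to the medians of 0.329 to 0.342 given above, Mrpl37 was no longer called (log2 fold change 0.13, edgeR adjusted p = 0.173), 21 members were called lower, and the median of all members was -0.16.

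**Figure D3:**
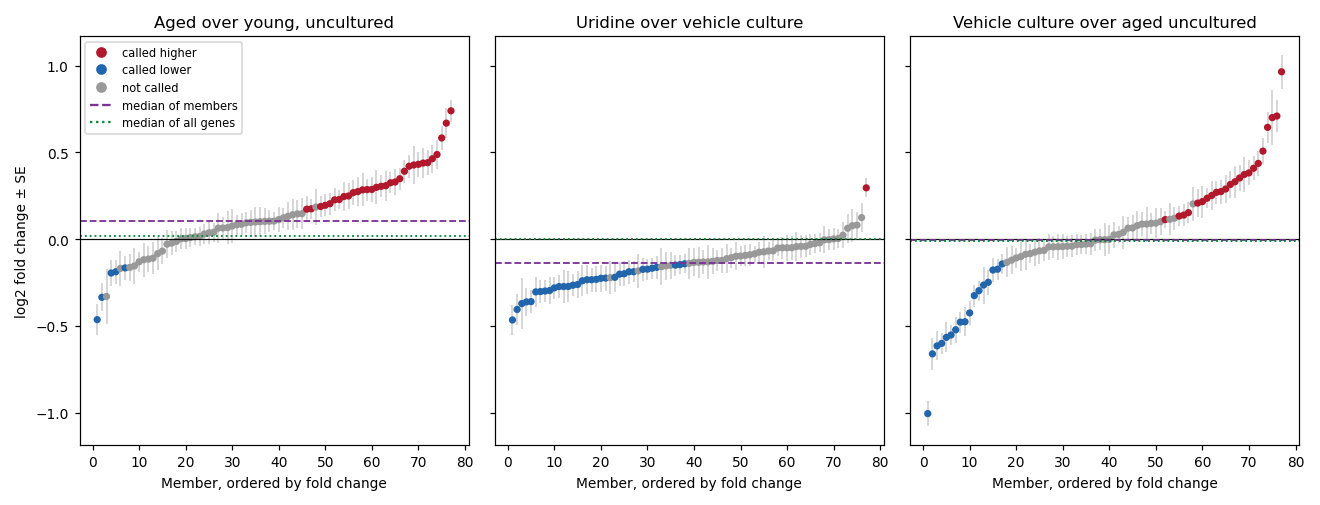
Each panel orders the 77 members by log2 fold change in one comparison, with whiskers of 1 SE, the dashed line at the median of the members and the dotted line at the median of all 16675 genes. Both lines lie apart for aged over young cells (0.10 and 0.017) and for uridine over vehicle (-0.14 and -0.0011), and close together for vehicle over uncultured aged cells (-0.0025 and -0.012).

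The age and uridine comparisons share no library, and their calls are set side by side here. Sharing no library does not make them independent. The uridine libraries stood at medians of 0.329 to 0.342 of the way from vehicle to young over the 145 genes above. The part of this in the shared calls was not tested. Of the 31 members higher in aged than in young cells, 18 were lower with uridine than with vehicle, 0 were higher and 13 did not pass. These 18 were 58.1% of the members higher in aged cells and 54.5% of the members lower with uridine. Of the 77 members tested, 42.9% were lower with uridine and 40.3% higher in aged cells, where 18.1% and 33.2% of all genes were. Over all genes tested, 1495 genes were higher in aged cells and lower with uridine, which was 27.0% of the genes higher in aged cells and 49.5% of the genes lower with uridine. Among the 18 were Mrpl52, Mrpl27, Mrpl54, Mrpl43, Mrpl51, Mrpl44, Mrpl41, Mrps34 and Mrps12. The sizes of the changes did not run together over the members, with a Pearson coefficient of -0.05 between the log2 fold changes (n = 77 genes, a description with no test), against -0.28 over all genes. Mrpl57 and Mrpl23, among the highest in aged over young cells, did not pass with uridine (-0.050 and 0.081, edgeR adjusted p = 0.571 and 0.421). Mrps22 and Mrps2 were lower in both comparisons. By group means, 40 members stood in uridine cultures between vehicle cultures and young cells, 35 below both and 2 above both.

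Vehicle cultures of aged HSPCs were also compared with uncultured aged HSPCs, which bears on culture without uridine. The members split in both directions, with 23 higher, 17 lower and 37 not past the threshold by edgeR's quasi-likelihood test. These were 29.9% and 22.1% of the members, where 35.4% of all genes were called higher and 35.1% lower (70.5% in either direction). The median was -0.0025 for the members and -0.012 for all genes. With a difference of at least 25% there were 11 members in each direction (28.2% of all genes higher and 29.7% lower), and libraries did not overlap for 25 members higher and 17 lower (36.1% and 35.4% of all genes). Under scaling by library totals, which raised the median of all genes by 0.33, 63 members were higher and 8 lower, with a median of 0.33. Calls over all genes were not counted under that scaling. This comparison uses libraries of both comparisons above, so its values are given for themselves. Of the 6 macrophage markers 4 were higher and 2 lower in vehicle cultures (654 to 673 CPM, against 124 to 135 CPM in uncultured aged cells). All 6 B cell markers were lower (40.0 to 43.2 CPM, against 1776 to 1862 CPM), as were the 7 plasma cell and 9 erythroid markers, and all 8 proliferation markers were higher (2659 to 2705 CPM, against 1811 to 1841 CPM). Their part in the result was not tested.

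Log2 fold changes of the members ran from -1.01 to 0.97 here, against -0.46 to 0.74 in aged over young cells and -0.47 to 0.30 with uridine over vehicle. Mrpl1, a homologue of the protein of the bacterial L1 stalk, had 34.7, 31.5 and 33.3 CPM in vehicle and 16.1, 20.5 and 14.4 CPM in uncultured aged libraries, the vehicle libraries all being far higher (log2 fold change 0.97, SE 0.098, adjusted p = 6.32e-11 by edgeR). Mrpl47 (log2 fold change 0.71, SE 0.093, adjusted p = 2.30e-08 by edgeR) had 15.6, 16.1 and 13.8 CPM in the uncultured aged libraries, below all its vehicle values given above. Mrps6 (log2 fold change 0.70, SE 0.16, adjusted p = 1.64e-04 by edgeR) was at 4.46, 5.29 and 5.51 CPM in uncultured aged libraries, also below every vehicle library. Mrps22 (0.64), Mrpl50 (0.51) and Mrpl45 (0.44), of which Mrpl45 tethers the ribosome to the inner membrane, were the next highest. Vehicle values of Mrps22 were 25.3, 26.3 and 27.3 CPM, above the young libraries as well as the aged ones.

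Mrpl23 fell most with culture, to 28.7, 26.97 and 25.6 CPM in vehicle libraries, against the uncultured aged values given above, all of which were higher (log2 fold change -1.01, SE 0.073, adjusted p = 7.86e-15 by edgeR). Mrpl58, a peptidyl-tRNA hydrolase built into the large subunit that frees stalled ribosomes, was at 17.3, 19.01 and 21.9 CPM in vehicle and 30.2, 29.6 and 32.2 CPM in uncultured aged libraries, with no overlap (log2 fold change -0.66, SE 0.093, adjusted p = 8.88e-08 by edgeR). Mrpl48 was at 22.6, 25.98 and 20.8 CPM in vehicle and 37.2, 33.7 and 35.3 CPM in uncultured aged libraries, also with no overlap (log2 fold change -0.62, SE 0.083, adjusted p = 4.20e-08 by edgeR). Mrpl57 (-0.60), Mrpl52 (-0.57) and Mrpl37 (-0.55) were the other members with large falls.

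Members that passed the test were found in both subunits and among proteins of both origins. In aged over young cells 20 of the 50 tested large subunit members were higher and 3 lower, and 11 of the 26 small subunit members were higher and 2 lower (33.2% of all genes were higher and 32.1% lower). With uridine over vehicle the large subunit had 1 higher and 23 lower, and the small subunit 0 higher and 9 lower (20% and 18.1% of all genes). Of the 46 members with a bacterial homologue 20 were higher and 1 lower in aged cells, and of the 30 tested members specific to mitochondria 11 were higher and 4 lower. With uridine 20 of the 46 and 12 of the 30 were lower. No difference between these classes was tested.

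Several members are not what their symbols say, or have paralogues. The Mrps18 genes encode 3 paralogous proteins, of which Mrps18a sits in the large subunit, as does Mrps30. Mrpl58, described above, was not called in aged over young cells (0.15) or with uridine (0.078). None of Mrps18a (0.10), Mrps18b (-0.12), Mrps18c (0.076) and Mrps30 (-0.11) was called in aged over young cells, but scaled by library totals all 4 were called lower, at -0.24 (edgeR adjusted p = 0.00541), -0.46 (1.04e-04), -0.27 (0.0159) and -0.46 (1.66e-06). Mrps18a was lower with uridine, at 29.3, 28.4 and 26.6 CPM against 32.1, 34.2 and 32.7 CPM with vehicle (log2 fold change -0.23, SE 0.074, adjusted p = 0.0125 by edgeR), with libraries that did not overlap. That call was lost without uridine library 3 or vehicle library 2 (0.0139 to 0.0669 over the 6 fits). With uridine Mrps18b (-0.18), Mrps18c (-0.073) and Mrps30 (0.023) were not called. Mrps36 is now known as a subunit of the 2-oxoglutarate dehydrogenase complex and not of the ribosome. In aged over young cells it was not called, but scaled by library totals it was called lower (-0.51, edgeR adjusted p = 4.21e-05). Over the 6 fits without a library its edgeR adjusted p ran from 0.0216 to 0.581 there (-0.29 to -0.072). In vehicle over uncultured aged cells it was higher in all 6 such fits (0.28 to 0.50, adjusted p 1.37e-04 to 0.0217 by edgeR). It was lower with uridine (log2 fold change -0.27, SE 0.098, adjusted p = 0.0251 by edgeR), at 18.7, 18.5 and 17.6 CPM against 22.8, 22.4 and 21.01 CPM, and its call was lost without uridine library 3, vehicle library 1 or vehicle library 2 (0.0282 to 0.0873 over the 6 fits).

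Short and longer transcripts differed in median fold change with age. The 24 members with a principal transcript of at most 1000 bases had a median log2 fold change of 0.26 in aged over young cells, and the 53 longer ones 0.097. Over 851 short protein-coding genes the median was also 0.26, and over 12463 longer ones -0.0073. With uridine over vehicle the short members had a median of -0.16 and the longer ones -0.13, against -0.14 and -0.011 for short and longer protein-coding genes. In vehicle over uncultured aged cells the medians were -0.016 for short and -0.0011 for longer members, against -0.25 and 0.055 for short and longer protein-coding genes. The part of length in the results was not tested.

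The promoters of the members were read from RefSeq windows on GRCm38.p6, from 250 bases before to 50 bases after the transcript start, which were found for 69 members. Motifs were searched as exact letters on both strands. The ETS motif CCGGAAG, bound by factors such as GABPA, lay in the windows of 37.7% of the members, against 12.9% of 17491 protein-coding genes with a window and 19.4% of the 10485 of these that were tested. The YY1 motif AAGATGGC lay in 17.4% of the members (3.57% and 5.06%) and the NRF1 motif GCGCATGC in 11.6% (3.93% and 5.74%). The GC box GGGCGG was found in 49.3% of the members (49.2% and 66.4%), the E box CACGTG in 7.25% (8.91% and 11.4%) and CCAAT in 39.1% (42.3% and 42.9%). The ETS motif was in 46.2% of the 26 members with a window that were higher in aged cells and in 31% of the other 42 tested. It was in 37.9% of the 29 members lower with uridine and in 35.9% of the other 39. A match is a description of the letters and does not show binding.

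The stretches just upstream of the RefSeq transcript start are shown for 3 members that changed and hold an ETS match. Mrpl52 (chr14:54426809-54426908, plus strand) and Mrpl43 (chr19:45006443-45006542, minus strand) were higher in aged cells and lower with uridine, and Mrps22 (chr9:98601680-98601779, minus strand) was lower in both comparisons. Sequences are from RefSeq on GRCm38.p6, 5′ to 3′ on the gene's strand, and capitals mark CCGGAAG or its reverse complement CTTCCGG. Mrpl43 holds 2 matches in these 100 bases and the others 1 each.
Mrpl52: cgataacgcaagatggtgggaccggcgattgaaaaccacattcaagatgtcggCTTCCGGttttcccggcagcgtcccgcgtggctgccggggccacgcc
Mrpl43: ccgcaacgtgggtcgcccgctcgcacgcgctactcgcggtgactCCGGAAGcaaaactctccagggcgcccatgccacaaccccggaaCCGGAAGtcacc
Mrps22: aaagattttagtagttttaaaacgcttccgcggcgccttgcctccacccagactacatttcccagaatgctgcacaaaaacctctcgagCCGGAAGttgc

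Mrpl43, whose product is specific to mitochondria, was at 56.3, 51.8 and 46.2 CPM in aged and 39.1, 40.5 and 37.9 CPM in young libraries (log2 fold change 0.39, SE 0.067, adjusted p = 4.41e-06 by edgeR). It was at 38.2, 35.6 and 36.7 CPM in uridine and 45.3, 44.2 and 46.9 CPM in vehicle libraries (log2 fold change -0.30, SE 0.067, adjusted p = 3.91e-04 by edgeR), and libraries did not overlap in either comparison. It shares 33.4% of its exon bases with Twnk, the mitochondrial DNA helicase on the opposite strand, which did not pass in aged over young cells (-0.076) or with uridine (-0.11).

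Of the factors that bind these motifs, Gabpa, Yy1 and Nrf1 were called in the direction opposite to most called members in both comparisons. These are levels of messenger RNA, and any part of the factors in the levels of the members was not tested. Myc, which binds the E box, was not called in aged over young cells (0.021) and fell with uridine (log2 fold change -0.20, SE 0.033, adjusted p = 6.76e-06 by edgeR). Gabpa was at 72.7 ± 5.998 CPM in aged and 98.4 ± 3.63 CPM in young cells (log2 fold change -0.44, SE 0.049, adjusted p = 1.03e-09 by edgeR), and at 90.3 ± 2.56 CPM with uridine and 78.4 ± 1.64 CPM with vehicle (log2 fold change 0.20, SE 0.048, adjusted p = 7.45e-04 by edgeR). Yy1 was at 189 ± 3.97 CPM in aged and 239.9 ± 2.32 CPM in young cells (log2 fold change -0.34, SE 0.032, adjusted p = 1.37e-11 by edgeR), and Nrf1 and the coactivator gene Pprc1 were also lower in aged cells (-0.24 and -0.58). With uridine Yy1 (0.14), Nrf1 (0.25) and Pprc1 (0.24) were higher. With young-like counts subtracted, the uridine values of Gabpa and Yy1 were no longer called (0.12 and -0.012). Nrf1 was not looked at under that setting. Of the 13 tested genes of mitochondrial transcription and biogenesis, 3 were higher and 6 lower in aged over young cells (33.2% and 32.1% of all genes), and 4 were higher and 3 lower with uridine (20% and 18.1%). Tefm, a mitochondrial transcription elongation factor, was higher in aged cells (0.41) and lower with uridine (-0.36). Esrra, the nuclear receptor that works with these coactivators, was likewise called in the direction of most called members, at 0.44 in aged cells and -0.21 with uridine, though scaled by library totals it was no longer called in aged cells (0.097).

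Many members start next to another gene on the other strand. A protein-coding neighbour with a facing start within 1000 bases was found for 33 members, and 31 of these had a neighbour that was tested. Mrpl46 and Mrps11 face each other, so these made 30 pairs. With age the member was called in 16 of the 30 pairs, the neighbour in 19 and both in 11, in the same direction in 6 and in opposite directions in 5 (65.3% of all genes were called). With uridine the member was called in 17 pairs, the neighbour in 9 and both in 4, in the same direction in 3 (38.1% of all genes). In vehicle over uncultured aged cells the member was called in 13 pairs, the neighbour in 21 and both in 11, in the same direction in 5 (70.5% of all genes).

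The pairs that parted with age were chosen for description after their values were seen. Mrpl57 and Ska3, which encodes a kinetochore protein, start 49 bases apart. Ska3 was at 17.4, 18.2 and 17.2 CPM in aged and 31.4, 35.3 and 31.7 CPM in young libraries (log2 fold change -0.90, SE 0.083, adjusted p = 8.14e-12 by edgeR), and its libraries did not overlap. Mrpl51 (log2 fold change 0.35, SE 0.063, adjusted p = 8.92e-06 by edgeR) faces Ncapd2, a condensin subunit, which was at 262 ± 3.73 CPM in aged and 528 ± 4.24 CPM in young cells (log2 fold change -1.01, SE 0.026, adjusted p = 2.90e-28 by edgeR). Mrpl27 overlaps and faces Eme1, a subunit of a DNA repair nuclease, which was at 13.2, 14.5 and 11.7 CPM in aged and 23.6, 20.5 and 21.8 CPM in young libraries (log2 fold change -0.74, SE 0.10, adjusted p = 6.89e-08 by edgeR). In the other direction, Mrpl49 starts 59 bases from Fau, which encodes a cytosolic ribosomal protein and stood at 914 ± 19.8 CPM in aged and 477 ± 15.9 CPM in young cells (log2 fold change 0.94, SE 0.026, adjusted p = 4.96e-27 by edgeR). The fifth pair, Mrpl50 with Zfp189 (log2 fold change 0.50, SE 0.21, adjusted p = 0.0359 by edgeR), rests on small margins, since Zfp189 lost its call under DESeq2, limma voom and 4 of the 6 fits without a library.

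The bases between the annotated starts of 2 of these pairs are shown because both genes share them as their upstream region. The stretch of Mrpl57 is 48 bases (chr14:57826186-57826233, plus strand), and that of Mrpl49 is 58 bases (chr19:6057786-6057843, minus strand), both from RefSeq on GRCm38.p6 and on the strand of the Mrpl gene. Neither holds a letter in capitals, as none of the 6 motifs lies in these bases. In the whole RefSeq windows, Mrpl57 has ETS and GC box matches and Mrpl49 has YY1 and GC box matches.
Mrpl57: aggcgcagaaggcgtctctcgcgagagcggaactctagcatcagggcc
Mrpl49: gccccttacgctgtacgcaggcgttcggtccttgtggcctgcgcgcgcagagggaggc

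**Figure D4:**
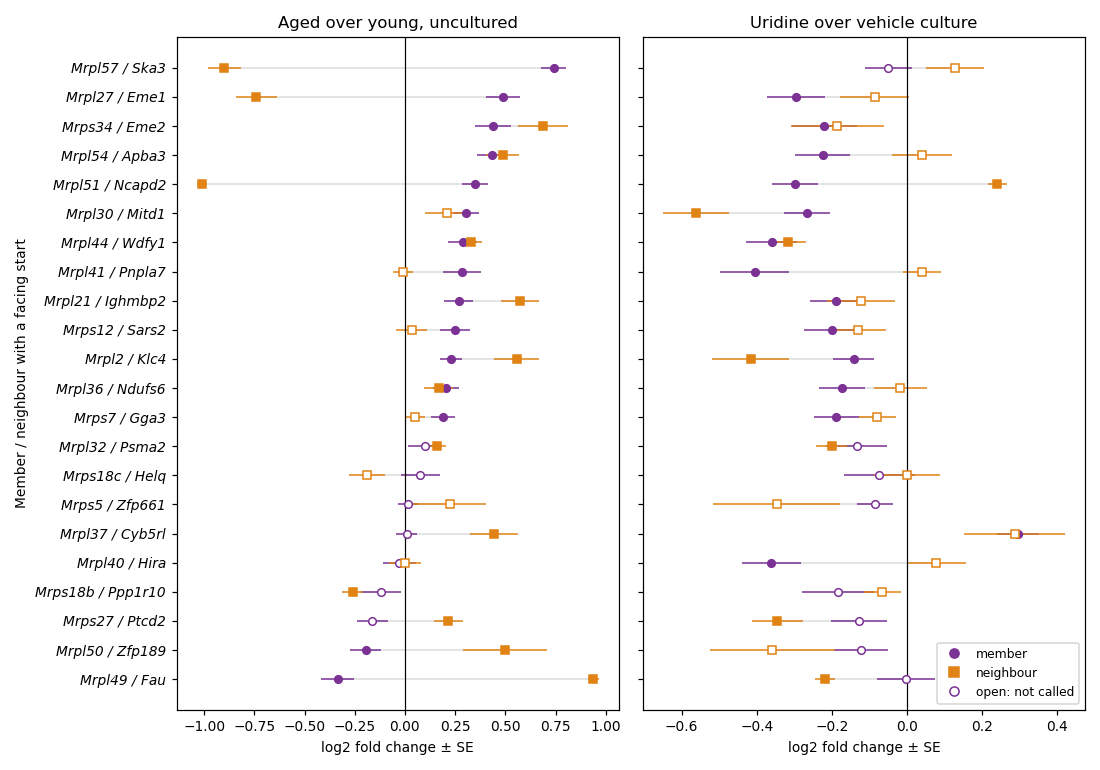
Circles give the log2 fold change (± SE) of 22 members and squares that of the neighbour whose start faces it, for pairs that overlap by at most 200 bases, and filled symbols mark an adjusted p under 0.05. In aged over young cells Mrpl57, Mrpl51 and Mrpl27 lie right of 0 and their neighbours Ska3, Ncapd2 and Eme1 left of it, and Mrpl49 and Fau lie the other way.

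In aged over young cells, the other lists of the mitochondrial translation system had calls in both directions. Of the 5 ribosomal proteins with other symbols, Aurkaip1 was higher in aged cells (0.31), Ptcd3 lower (-0.29), and Chchd1 (0.11), Gadd45gip1 (0.057) and Dap3 (-0.035) were not called. Scaled by library totals, Aurkaip1 had a log2 fold change of -0.033, Chchd1 of -0.23 and Gadd45gip1 of -0.28. With uridine Dap3 was called higher by edgeR (0.14) and the other 4 were not called. Under DESeq2 Dap3 was not called (adjusted p = 0.111) and Aurkaip1 was called lower (-0.15, adjusted p = 0.0384). The edgeR call of Dap3 was also lost with no low-count filter (0.0924). It was lost without uridine library 1, uridine library 2 or any 1 vehicle library, with values of 0.095 to 0.15, while with young-like counts subtracted its value was -0.0033. Of 14 translation factors 5 were higher and 3 lower in aged cells (median 0.0085, with 33.2% of all genes higher and 32.1% lower), the lower ones being the elongation factors Tufm (-0.32) and Gfm1 (-0.41) and the RNA-binding protein Lrpprc (-0.33). With uridine 2 factors were lower, Mtif2 of initiation (-0.28) and the release factor Mtrf1 (-0.49, not called with young-like counts subtracted, -0.40), and 0 were higher. Of all genes 18.1% were lower and 20% higher with uridine. Of 29 assembly factors 12 were higher and 5 lower in aged cells (median 0.16, beside the same shares of all genes), with the GTPases Mtg2 (0.76) and Mtg1 (0.58) and Mpv17l2 (0.51, not called when scaled by library totals, 0.17) among the higher and the GTPase Noa1 (-0.38) among the lower. With uridine 3 assembly factors were lower (18.1% of all genes), Ndufab1 (-0.30), Nsun4 (-0.31) and Mtg1 (-0.28), and 26 were not called. Nsun4 lost its call without uridine library 2 or vehicle library 3 (-0.21 and -0.27), and both Nsun4 and Mtg1 lost theirs with young-like counts subtracted (-0.24 and -0.13).

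The messenger RNAs that the mitochondrial ribosome translates are transcribed from mitochondrial DNA. Of these 13, 10 were higher and 2 lower in aged over young cells, with a median of 0.44 (33.2% and 32.1% of all genes). The 2 lower ones were mt-Nd3 (-2.15), at 1.12 ± 0.434 CPM in aged and 4.996 ± 0.443 CPM in young cells, and mt-Nd4l (-1.13), at 1.34 ± 0.259 CPM in aged and 2.94 ± 0.440 CPM in young cells. Of the higher ones, mt-Co2, mt-Co3 and mt-Atp6 were also low in aged cells, at 49.0, 24.8 and 23.2 CPM. There mt-Co1 stood at 6583 CPM and mt-Cytb at 2523 CPM. Whether reads of the low genes were lost in mapping was not tested, and the use of strand in counting is not known. The gene mt-Nd6 was at 581 ± 7.32 CPM in aged and 329 ± 6.01 CPM in young cells (log2 fold change 0.82, SE 0.027, adjusted p = 7.70e-25 by edgeR), and mt-Nd4, mt-Cytb and mt-Nd1 were higher by 0.51, 0.44 and 0.41 on the log2 scale. Scaled by library totals these 4 were still called higher (0.48, 0.17, 0.10 and 0.071). The other genes called higher were not looked at under that scaling. Of these, mt-Co1 (0.038), mt-Nd5 (0.15) and mt-Atp6 (0.25) rose by less than the 0.34 by which it lowered the median of all genes. With uridine 2 were higher and 4 lower with a median of -0.0062 (20% and 18.1% of all genes). Those lower included mt-Nd2 (-0.18) and mt-Nd1 (-0.14). The gene with the largest change, mt-Nd3, was a low one, at 3.54 ± 0.193 CPM with uridine and 0.835 ± 0.107 CPM with vehicle (log2 fold change 2.07, SE 0.28, adjusted p = 1.33e-07 by edgeR). In vehicle over uncultured aged cells 2 were higher and 9 lower (median -0.41), where 35.4% of all genes were higher and 35.1% lower. The mitochondrial ribosomal RNAs were lower in aged than in young cells, mt-Rnr1 by -0.48 and mt-Rnr2 by -0.57 in log2 fold change, but the libraries were made from RNA selected by poly-T beads, which are not meant to capture ribosomal RNA.

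**Figure D5:**
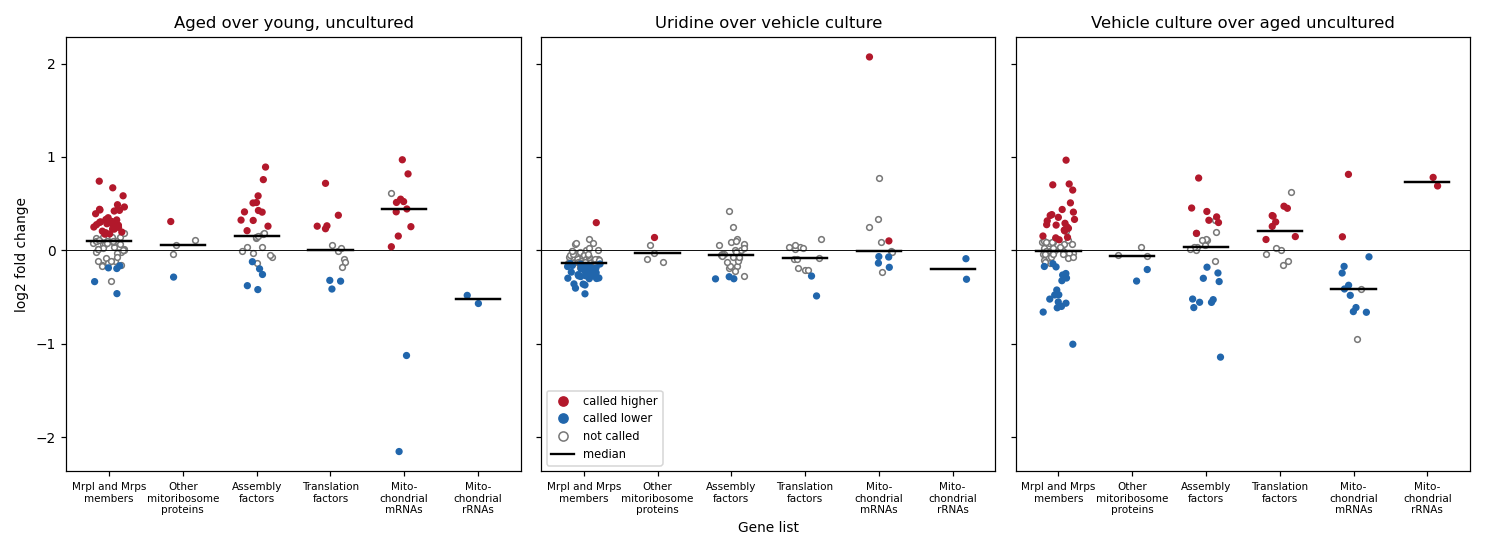
Points are genes of 6 lists (the members, other mitoribosome proteins, assembly factors, translation factors, and mitochondrial mRNAs and rRNAs), red where called higher, blue where called lower and open where not called, with a bar at the list's median log2 fold change. In aged over young cells the medians are 0.10 for the members and 0.44 for the mitochondrial mRNAs, and with uridine over vehicle -0.14 and -0.0062.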

How the data were processed

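The deposited values are raw counts per gene, made by the authors from paired reads of 150 bases (NovaSeq 6000, poly-T selected RNA, per the labels' protocols). HISAT2 2.0.5 and mm10 are named in the submitters' processing notes. No source used here names the counting program, its annotation or its strand setting, so whether the counts separate a gene from an overlapping or antisense one is not known. Of the 54532 gene IDs, 54495 matched GENCODE M21 and 37 did not. Every value column was used.

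The counts of all 12 libraries (16785065 to 19025802) entered 1 fit. Genes passing edgeR's filterByExpr (minimum count 10) were scaled by TMM and tested with the quasi-likelihood test of edgeR 4.0.16 (R 4.3.3; 8 residual degrees of freedom, common biological coefficient of variation 0.0438), with Benjamini-Hochberg adjustment over all 16675 genes and a threshold of 0.05. SE is the absolute log2 fold change divided by the square root of F. FPKM used the length of the principal transcript. The script was tested on simulated counts whose groups shared the same mean profile apart from a small set of changed genes. The large immunoglobulin difference of the uncultured aged libraries was not part of that test. DESeq2 1.42.0, limma 3.58.1 voom, other scalings and filters, and fits without each library were alternatives.

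Members given in full were up to 6 called per direction by size of change, the most abundant, and the paralogous or misnamed ones. Of the other lists, all of the other mitochondrial ribosomal proteins and up to 4 called genes each by smallest p were named, and Nrf1 and a few more were named beside a result that turns on them. Members and lists were chosen with earlier results of these data known.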

Additional observations from a re-analysis of the deposited data

How the results depend on the processing

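Scaling by library totals alone in aged over young cells gave 3 members higher, 48 lower and a median of -0.24, with uridine over vehicle 21 lower, and in vehicle over uncultured aged cells 63 higher, 8 lower and a median of 0.33. It moved the median of all genes by -0.34, 0.021 and 0.33 in these comparisons, and calls over all genes were not counted under it. Signs were compared under it only for genes followed by name and called with 1 scaling or both. With age 59 of the 77 members were above 0 after TMM scaling and the median by totals was -0.24, so unlisted members turned too. Of the genes followed, Mrps18a (-0.24), Mrps18c (-0.27), Aurkaip1 (-0.033), Chchd1 (-0.23) and Gadd45gip1 (-0.28) changed sign in aged over young cells. In vehicle over uncultured aged cells Mrps18a (0.29), Mrps30 (0.29), Aurkaip1 (0.13), Dap3 (0.0055), Chchd1 (0.28), Gadd45gip1 (0.27), Nrf1 (0.095) and mt-Nd1 (0.092) did. By construction the totals include the immunoglobulin counts. With young-like counts subtracted, an alternative for uridine over vehicle, 0 members were higher and 21 lower, and Dap3 (-0.0033) and Yy1 (-0.012) changed sign; the cause was not tested. Asking also for a difference of at least 25% gave 14 higher and 2 lower with age, 0 and 5 with uridine, and 11 and 11 with culture, since it adds a second criterion. Leaving out 1 library gave 28 to 31 higher and 2 to 5 lower with age (median 0.097 to 0.15), 1 higher and 20 to 25 lower with uridine (median -0.16 to -0.13), and 19 to 21 higher and 14 to 16 lower with culture (median -0.0088 to 0.025). The count of 2 lower came without aged library 3, and the counts of 20 without uridine library 2 and without vehicle library 1. Under DESeq2 the counts were 30 and 6, 1 and 34, and 19 and 17, and under limma voom 32 and 5, 1 and 33, and 23 and 17.

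No pairing of samples by replicate number was detected: deviations of same-numbered libraries correlated at -0.0726 to 0.0447, and of others at -0.0589 to 0.0622. If the spread within groups is technical, these values could not show a pairing. With the replicate block 31 members were higher and 5 lower with age (median 0.10), 1 and 31 with uridine (median -0.14), and 21 and 17 with culture (median -0.0033), and the block changed no call of a gene tested for it by name.

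Counts of 0 bound a level only below 0.148 to 0.209 CPM, the level of 3 counts (counting error only).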

Other observations

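Mrpl53 (chromosome 6, 83109040 to 83109939, plus strand, GRCm38) had 0 counts in all 12 libraries. Of its exon bases 88% are shared on the same strand with Gm42688, which had 414 counts over the 12 libraries. Whether reads of Mrpl53 were given to Gm42688 or left uncounted was not tested.

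Nme3, which shares 37% of the exon bases of Mrps34 on the same strand, was also at 0 counts in every library. Mrps25, the least abundant member per length, shares 69.8% of its exon bases with Nr2c2 on the opposite strand, and Nr2c2 was lower in aged than in young cells (log2 fold change -1.09) and higher with uridine than with vehicle (0.34).

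Among processed copies of members, Mrpl23-ps1 had 150 counts and Mrpl48-ps 136 counts over the 12 libraries, and Mrps36-ps1, Mrps36-ps2 and Mrps36-ps3 had 48, 23 and 0. In aged over young cells Mrpl23-ps1 did not pass (log2 fold change 0.76, edgeR adjusted p = 0.157).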
